A study of Bos taurus and Cervus elaphus with 24 samples.

Results

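Blood gene expression of Holstein-Friesian (HF) cattle, a high-yielding dairy breed, was compared between peak lactation and the dry period. The members were the 4 arrays labelled HF peak lactation and the 4 labelled HF dry period, 8 of the 24 arrays in the series, taken by their labels of breed and physiological state. Each array carried RNA from the blood of 1 cow in the Cy5 dye and a common RNA reference from 20 cattle outside the groups in the Cy3 dye. Per the series text the same 4 cows were bled in both states, so an animal number below stands for 1 cow with an array in each state. The remaining arrays, of Polish Red (PR) cattle and deer in the same states, enter only through the shared estimate of spread and a few direct comparisons. The labels give no age, parity, milk yield or day of lactation, and they name no treatment of the animals.

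The dry period is the rest before calving, when the cow is not milked. At peak lactation milk output is highest, and the cow draws on body fat and glucose to sustain it. White blood cells sample this state in the circulation: neutrophils and monocytes are the phagocytes that also enter the udder to fight infection, and T, B and NK cells make up the lymphocytes. Nuclear receptors are transcription factors that small lipophilic molecules switch on, and liver X receptors are those that respond to oxidised cholesterol.

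The labels call the material peripheral blood nuclear cells, whereas the collection tubes take whole blood. Key markers of T cells (CD3E, CD4, CD8A), B cells (CD79A, MS4A1), NK cells (GNLY, PRF1, NCR1) and monocytes (CD14, CSF1R, CD163) were well above background on 4 of 4 arrays of each state. The same held for neutrophil MMP9, LTF and S100A9, for the platelet gene PF4 and for the erythroid genes HBA, HBB and ALAS2. CAMP, another neutrophil granule gene, was above background on 2 lactation arrays and on 0 dry arrays.

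On the 8 arrays 31692 to 39110 of 43653 probes were well above background. Both arrays of an animal shared a slide and a scan session, so the difference within each animal is also a difference within a slide and within a session. Position on the slide could not be told apart from state among these arrays, because every dry sample lay at position 1 and no lactation sample did. The header correlation of the spike-in controls was 0.17 to 0.40 on the 4 arrays of animals 2 and 3 and at least 0.99 on those of animals 1 and 4. Without animals 2 and 3 the medians of 22 of the 37 gene lists described below moved by over 1.5 times and 5 changed sign. Leaving out any 1 HF array moved 9 to 20 lists as far, and 2 to 8 changed sign. Leaving out animals 1 and 4 instead was not run, so a link to the spike-in values was not tested. In bulk RNA of this kind fewer cells of a type and less RNA per cell cannot be told apart.

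Probe sequences are shown for the gene that passed the test and for 2 ranked genes whose probes differed among themselves. All are 60 bases long, 5′ to 3′, as printed on the array, and the files place each over a splice junction, since the genomic interval (UMD 3.1 assembly) is longer than the probe. The first 2 belong to NR1H3, at chr15:78326649-78329681 and chr15:78324060-78324646 on the plus strand, and are called here its wide and its narrow junction probe.
NR1H3 wide: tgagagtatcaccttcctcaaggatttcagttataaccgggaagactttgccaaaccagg
NR1H3 narrow: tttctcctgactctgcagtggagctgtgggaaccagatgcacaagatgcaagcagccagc
The next pair belongs to MMP9, at chr13:75471125-75471618 and chr13:75468303-75468450 on the plus strand, whose differences between states were unequal.
MMP9 downstream: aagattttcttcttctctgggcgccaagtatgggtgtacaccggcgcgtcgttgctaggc
MMP9 upstream: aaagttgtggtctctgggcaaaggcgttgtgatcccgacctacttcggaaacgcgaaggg
The last pair belongs to CLSTN1, at chr16:44672450-44672861 and chr16:44669204-44670270 on the plus strand, whose differences had opposite signs.
CLSTN1 downstream: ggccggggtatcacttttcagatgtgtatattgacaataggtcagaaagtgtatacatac
CLSTN1 upstream: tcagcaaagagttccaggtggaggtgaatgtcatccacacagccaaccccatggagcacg

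NR1H3, which encodes liver X receptor alpha, rose at peak lactation in 4 of 4 cows. It was the only named gene to pass the test in the fit without an animal term. With the animal as a block none of the NR1H3 probes passed, as given below. Its brightest probe, at chr15:78330145-78330204, had log2 ratios to the reference of 0.06, -0.15, 0.14 and -0.40 in lactation (animals 1 to 4), against -1.09, -1.07, -1.32 and -0.99 in the dry period. Every lactation value lay above every dry value. The mean was -0.09 ± 0.24 in lactation and -1.12 ± 0.14 in the dry period (SD, n = 4 each), a difference of 1.03 on the log2 scale (SE 0.13, 2.05-fold, limma adjusted p = 0.00421). The exact two-sided sign-flip permutation test over the 4 animals gave p = 0.125, the smallest that 4 pairs can give.

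The wide junction probe read -0.04, 0.17, 0.24 and -0.17 in lactation, against -1.09, -0.97, -1.01 and -0.84 in the dry period. Its difference of 1.03 (SE 0.15, limma adjusted p = 0.0208) was the same size as that of the brightest probe. The narrow junction probe read 0.04, -0.09, 0.18 and -0.08 in lactation, against -0.66, -0.49, -0.56 and -0.49 in the dry period, a difference of 0.56 (SE 0.09, limma adjusted p = 0.0345). The 3 probes therefore all separated the states with no overlap, and animal 4 had the smallest difference at the 2 probes with the larger change in this fit. The size at the narrow probe depended on background handling. It was 0.73 with no background correction, 1.08 with plain subtraction and 1.17 with the Agilent processed log ratio. In the same settings the brightest probe gave 1.04, 1.04 and 1.05.

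These 3 probes were the whole of what passed an adjusted p of 0.05 in limma, 0.00906% of 33103 probes tested, and NR1H3 was 1 of 13432 genes (0.00744%). Within animals the difference at the brightest probe was 1.15, 0.92, 1.46 and 0.60. With the animal as a block, which the pairing of samples called for, its limma adjusted p was 0.0532 and those of the junction probes were 0.0761 and 0.104. The block left a single call, 0.00302% of the probes, at a probe with no gene name here. Without animals 2 and 3 it was 0.87 and no probe passed, and with slide position in the model, estimated with the help of the other groups, it was 0.90 and again none passed. The brightest probe kept its call without any 1 of the 8 HF arrays (limma adjusted p up to 0.0412). The wide junction probe lost it without any array but that of animal 4 in lactation (limma adjusted p up to 0.180), and the narrow one without each of the 8 (limma adjusted p from 0.0608 to 0.230).

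**Figure D1:**
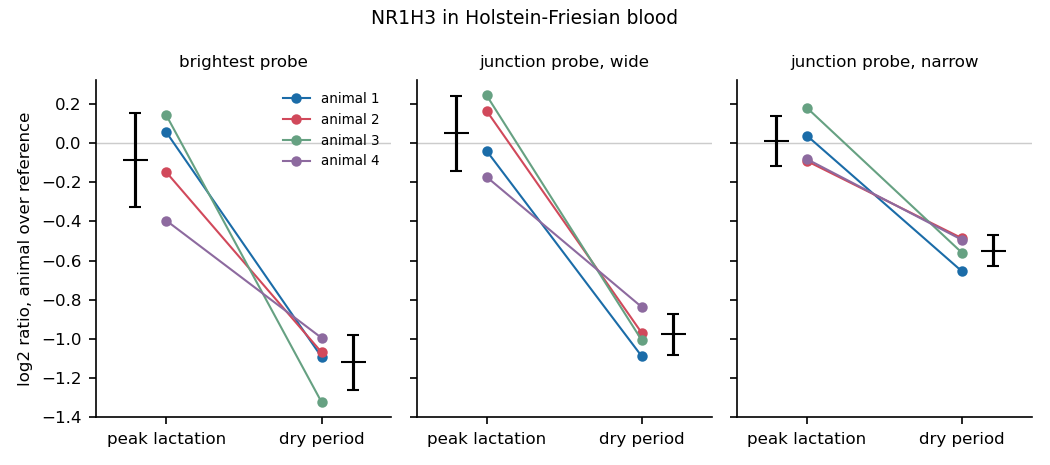
Log2 ratio of NR1H3 signal to the common reference (vertical axis) in peak lactation and in the dry period, for its brightest probe and its wide and narrow junction probes; each line joins the samples of 1 animal, and the bars beside them show the mean and SD of 4 animals. All 4 lines run higher in lactation at each probe, with mean differences of 1.03, 1.03 and 0.56.

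Liver X receptors pair with retinoid X receptors on DNA and switch on genes of cholesterol export and lipid synthesis. Of 21 tested genes in a list of such partners and targets, NR1H3 alone passed. The list split into 11 higher and 10 lower in lactation, with a median of 0.02, against 43.7% of all 13432 genes higher and a median of -0.02. The sterol exporters ABCA1 and ABCG1 differed by 0.02 (SE 0.15) and -0.11 (SE 0.07), and MYLIP, which marks the LDL receptor for breakdown, by 0.18 (SE 0.22). NR1H2, the sister receptor liver X receptor beta, differed by -0.14 (SE 0.21). SMPDL3A, a phosphodiesterase, was at -0.34, -0.16, 0.41 and 0.21 in lactation, against -0.42, -0.34, -0.51 and -0.47 in the dry period, a difference of 0.47 (SE 0.13, limma adjusted p = 0.321) in which the states did not overlap. LPL, lipoprotein lipase, had one of the larger values at 0.56.

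The genes ranked next by p above the dry level, all of which missed the adjusted threshold, held several with known roles in myeloid cells. They were picked for their small p, so their values are a description. CYRIA, a brake on the actin regulator RAC1, read -0.25, 0.13, 0.27 and -0.30 in lactation, against -1.01, -1.03, -0.78 and -0.71 in the dry period, a difference of 0.85 (SE 0.17, limma adjusted p = 0.173). TNFSF9, the ligand that costimulates T cells through 4-1BB, read 0.66, 0.06, 1.54 and 0.09 in lactation, against -0.61, -0.39, -0.84 and -0.65 in the dry period. Neither gene overlapped between states, and for TNFSF9 the lactation values were spread more widely than the dry ones.

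OSCAR, an activating receptor of myeloid cells and osteoclasts, read 0.20, 0.06, 0.92 and -0.19 in lactation, against -1.14, -0.99, -0.52 and -0.80 in the dry period, a difference of 1.11 (SE 0.23). MMP9, gelatinase B of neutrophil granules, read 0.14, 1.17, 1.91 and -0.07 in lactation, against -0.89, -1.60, -0.42 and -0.58 in the dry period at its brightest probe, a difference of 1.66 (SE 0.35, limma adjusted p = 0.173). Animals 2 and 3 carried most of it, with 2.77 and 2.33 against 1.04 and 0.51 in animals 1 and 4, and without animals 2 and 3 it was 0.77. The downstream and upstream junction probes of MMP9 printed above gave 1.18 and 0.31.

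Lipid and energy metabolism was represented by ACSL6, which activates long-chain fatty acids, at -0.36, 0.38, 0.05 and -0.56 in lactation, against -0.96, -1.14, -0.94 and -1.12 in the dry period. IDH1, a source of NADPH in the cytosol, was the tightest of the group within lactation, at 0.02, 0.07, 0.09 and 0.08, against -0.29, -0.29, -0.45 and -0.41 in the dry period. Its difference was 0.42 (SE 0.09, limma adjusted p = 0.204). ENO3, the muscle-type enolase of glycolysis, had 4 tested probes that all ran higher, between 0.43 and 0.78.

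Of the other genes on the upper side, LTBR, a receptor for lymphotoxin, differed by 0.78 and PDXK, the kinase that activates vitamin B6, by 1.05. CD101, an inhibitory receptor of myeloid and T cells, differed by 0.86 and MITF, a transcription factor of mast cells, osteoclasts and pigment cells, by 0.58. MAOA, which breaks down monoamines, differed by 0.72 and ACVRL1, a receptor of the BMP family, by 0.79. All 14 genes on this side were higher in 4 of 4 animals, which the ranking required and which 11.1% of all genes showed. The states did not overlap in any of the 14, against 3.13% of all genes. For PDXK the neighbouring probe gave 0.24, and for ACVRL1 1 of 3 probes gave -0.06.

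Differences on the lower side were smaller. VAMP1, a vesicle fusion protein, read 0.01, 0.21, -0.16 and 0.07 in lactation, against 0.44, 0.60, 0.53 and 0.71 in the dry period, a difference of -0.53 (SE 0.11, limma adjusted p = 0.173). GABBR1, a subunit of the GABA-B receptor, was uniform in lactation at its brightest probe, at -0.15, -0.16, -0.18 and -0.13, against 0.10, 0.08, 0.34 and 0.26 in the dry period. A further GABBR1 probe differed by -0.14 and was higher in 1 animal. C1QTNF12, a secreted relative of adiponectin, had the largest difference of the 15, -0.72, but its states overlapped.

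CLSTN1, a calsyntenin, differed by -0.43 (SE 0.11) at the downstream junction probe printed above and by 0.04 (SE 0.08) at the upstream one. Of its 5 probes 4 were lower in lactation. The remaining genes on this side were SMIM24, CNTROB, a centriole protein, PRR22, EPHX4, THEM6, ZNF653, KRT17, a keratin, NFYC, a subunit of the CCAAT-binding factor NF-Y, DTX3, AGFG2 and SEMA5B, a semaphorin. Their differences lay between -0.24 and -0.45. All 15 were lower in 4 of 4 animals by the way they were ranked, against 13.5% of all genes, and the states did not overlap in 13 of them, against 3.56%. Further probes of AGFG2, NFYC and ZNF653 gave -0.12, -0.09 and -0.18, and each was higher in 1 animal.

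**Figure D2:**
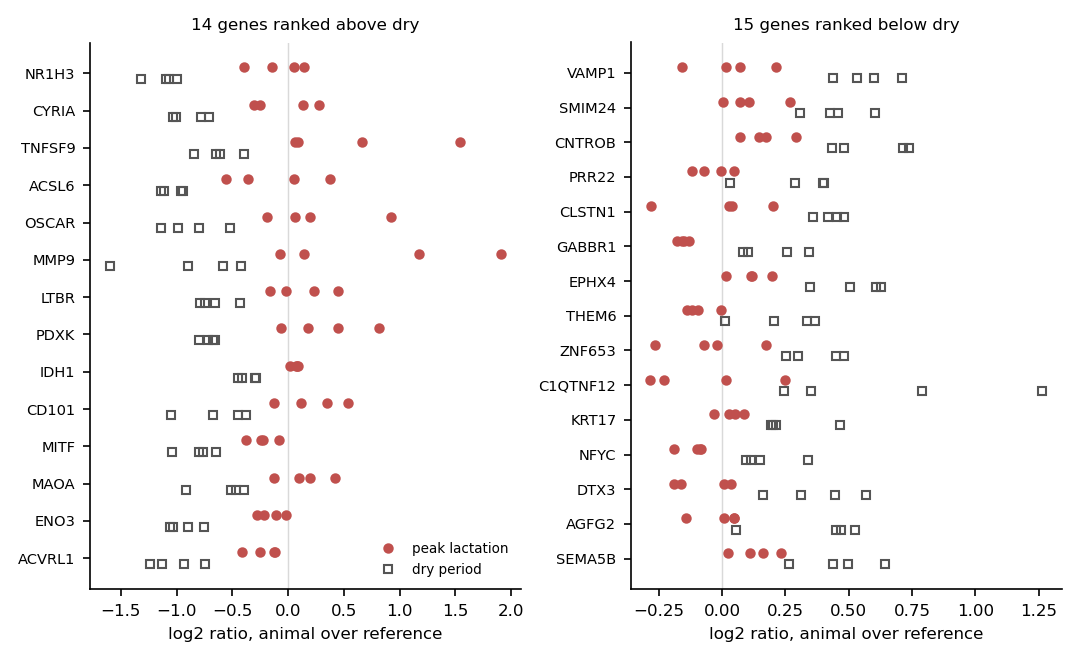
Log2 ratio to the common reference (horizontal axis) on each of the 8 arrays for the 14 named genes ranked above the dry level and the 15 below it; filled circles are peak lactation and open squares the dry period. The lactation circles of MMP9 spread from -0.07 to 1.91, those of IDH1 from 0.02 to 0.09.

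Across 37 gene lists, the neutrophil granule, monocyte and neutrophil receptor lists had the highest medians, and the NK and B cell lists the lowest. This order changed without animals 2 and 3: the granule list lay at 0.12, below the glucocorticoid list at 0.26 and the cholesterol list at 0.22. Apart from NR1H3, no list member passed the adjusted test in limma, so the lists are described by counts and medians beside those of all genes, of which 4.44% were higher and 3.07% lower at an unadjusted p of 0.05. The lists share genes, and they were chosen with earlier results of these data known. Members named by the size of their difference within a list were chosen after their values were seen.

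Of 29 tested neutrophil granule genes 27 were higher in lactation, with a median of 0.66. The median in single animals was 0.18, 0.46, 1.60 and 0.02, so animal 3 stood far above the rest and animal 4 near 0. Without animals 2 and 3 the list had 20 higher and 9 lower, and without the lactation array of animal 3 alone its median was 0.26. S100A9, a calcium-binding protein abundant in neutrophils, read -0.66, 0.92, 0.65 and -0.55 in lactation, against -1.47, -1.92, -0.84 and -1.02 in the dry period, with no overlap between states (difference 1.40, SE 0.40, limma adjusted p = 0.321).

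LTF, lactoferrin, the iron-binding protein of milk and of neutrophil granules, read -0.92, -1.19, 2.92 and -1.32 in lactation, against -0.86, -1.48, -1.51 and -1.28 in the dry period. Its fitted difference was 1.15 (SE 0.58), the lactation sample of animal 3 alone was high, and without animals 2 and 3 it was -0.05. HP, haptoglobin, read -0.08, 0.59, 1.09 and -1.92 in lactation, against -0.60, -1.49, -1.45 and -1.61 in the dry period, so that 3 of 4 animals were higher. MPO, myeloperoxidase, which is made in neutrophil precursors, differed by -0.87.

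Of 27 tested neutrophil receptor genes 24 were higher, with a median of 0.47 and single-animal medians of 0.23, 1.01, 0.40 and 0.32. The median was 0.25 without animals 2 and 3, with 22 higher and 5 lower. FCGR3A, an Fc receptor of neutrophils, NK cells and monocytes, read 0.33, 0.52, 0.55 and -0.22 in lactation, against -1.17, -0.09, -0.85 and -0.93 in the dry period, a difference of 1.06 (SE 0.27). CXCR2, the receptor for interleukin 8, differed by 0.82 and VNN2 by 0.90, whereas ITGAM, the integrin CD11b, differed by -0.21. Subunits of the phagocyte oxidase differed little: 7 of 10 were higher, the median was 0.11 and CYBB, the catalytic subunit, differed by 0.24 (SE 0.19).

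Monocyte and macrophage markers were higher in 24 of 28 genes, with a median of 0.52, and 14 of the 28 had an unadjusted p under 0.05. The median of the list on each array was -0.17, 0.14, 0.08 and -0.16 in lactation, against -0.54, -0.52, -0.39 and -0.39 in the dry period, so the states did not overlap. Single animals gave 0.41, 0.74, 0.40 and 0.23, and without animals 2 and 3 the median was 0.31 with 25 higher. CSF1R, the receptor for macrophage colony-stimulating factor, read -0.22, 0.18, -0.51 and -0.43 in lactation, against -0.61, -0.76, -0.55 and -0.30 in the dry period, so the states overlapped (difference 0.31, SE 0.20). CD14, the lipopolysaccharide co-receptor, read 0.05, 0.75, 0.83 and -0.43 in lactation, against -0.45, -0.74, 0.04 and -0.28 in the dry period, and was lower in animal 4. CD163, the haemoglobin scavenger receptor, depended on animal 2, at 1.58 against 0.17, 0.12 and -0.15 in the others. NR1H3 is known to be expressed in macrophages, and the part of these markers in its change was not tested.

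Most lymphocyte genes lay lower in lactation, by small amounts that depended on single arrays. Of 35 T cell genes 29 were lower (median -0.11), of 27 B cell genes 21 (median -0.16) and of 24 NK and cytotoxic genes 19 (median -0.24). Single animals gave T cell medians of -0.19, -0.26, -0.05 and 0.09, B cell medians of 0.02, -0.27, -0.33 and -0.16, and NK cell medians of -0.35, -0.21, -0.11 and -0.12. The T cell median was -0.05 without lactation array 3, -0.02 without dry array 1, -0.07 without dry array 2 and -0.21 without dry array 3, against -0.02 for all genes. The B cell median was -0.09 without lactation array 2 and -0.08 without animals 2 and 3. The NK cell median was -0.13 without lactation array 1, -0.39 without lactation array 2, -0.05 without dry array 2 and -0.36 without dry array 3. CD79A, a signalling chain of the B cell receptor, read -0.20, -0.12, -0.55 and 0.00 in lactation, against -0.08, 0.27, 0.50 and 0.99 in the dry period. MS4A1, the surface protein CD20, differed by -0.35 (SE 0.21). GNLY, granulysin of cytotoxic granules, read -0.86, 0.53, -0.60 and -1.39 in lactation, against 1.09, 0.75, -0.01 and -0.10 in the dry period, a difference of -1.01 (SE 0.36, limma adjusted p = 0.468). The NK and cytotoxic list also held FCGR3A, its highest member at 1.06. In that list 2 genes were higher and 1 lower at an unadjusted p of 0.05 in limma. CD3E, a chain of the T cell receptor complex, differed by -0.25 (SE 0.18) and CD8A by -0.09 (SE 0.34). In the B cell list the plasma cell genes PRDM1 and JCHAIN differed by 0.50 and 0.40.

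WC1 molecules are scavenger receptors that mark most gamma delta T cells in cattle blood. CD163L1, a member of that family, read -0.10, -0.30, -0.82 and 0.30 in lactation, against 0.72, 0.86, 0.98 and 0.82 in the dry period, a difference of -1.08 (SE 0.39, limma adjusted p = 0.469). WC1 read -0.18, -0.17, -0.23 and 0.08 in lactation, against 0.38, 0.34, 0.42 and 0.34 in the dry period. Neither gene overlapped between states, and both were lower in 4 of 4 animals. All 7 probes of CD163L1 and all 6 of WC1.3 were lower. Family members are similar in sequence, so probes may share signal between them. Over the 9 tested genes of the gamma delta list the median was -0.08, with 6 lower and 3 higher. At an unadjusted p of 0.05 in limma, 3 were lower and 2 higher, and the highest difference was 0.65.

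**Figure D3:**
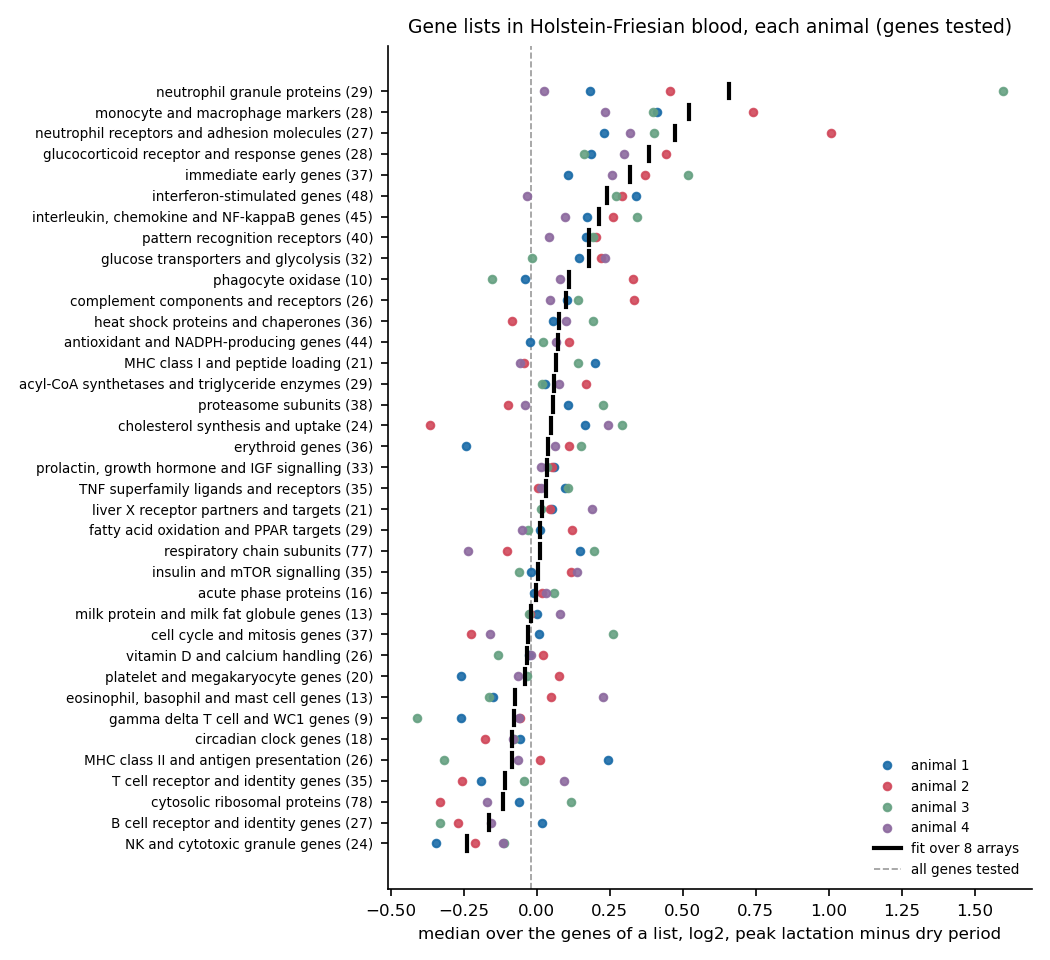
Median difference between peak lactation and the dry period (log2, horizontal axis) over the tested genes of each of 37 lists; points are the 4 animals, the black bar is the fit over 8 arrays and the dashed line the median of all genes (-0.02). Neutrophil granule genes reached 1.60 in animal 3 and 0.02 in animal 4, and monocyte markers lay between 0.23 and 0.74.

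Genes of red cells and platelets varied between animals without a common direction. HBB, the beta globin chain, read 0.05, 0.29, -0.55 and 0.53 in lactation, against 2.00, -0.80, -2.71 and -1.69 in the dry period. HBA, the alpha chain, followed the same order, with differences of -3.02, 1.04, 1.62 and 1.97 in animals 1 to 4. ALAS2, the first enzyme of haem synthesis in red cell precursors, gave -1.71, 0.96, 0.79 and 0.95. Animal 1 was thus lower in lactation and the other animals higher for all 3 genes, while the dry samples of HBB spanned a wider range than the lactation samples. PF4, a platelet chemokine, differed by -0.11 (SE 0.39), and over 20 platelet genes the median was -0.04.

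Immediate early genes, which answer stimulation within minutes, were higher in 31 of 37, with a median of 0.32 and single-animal medians of 0.11, 0.37, 0.52 and 0.26. FOS, a subunit of the transcription factor AP-1, read -0.20, 0.25, 5.77 and 0.17 in lactation, against -0.01, -0.07, -0.26 and -0.30 in the dry period. EGR1, a zinc finger factor, read -0.06, -0.19, 2.10 and -0.13 in lactation, against 0.01, -0.14, -0.15 and -0.05 in the dry period. The lactation sample of animal 3 was therefore alone in its high FOS and EGR1. It was also the sample with the highest LTF. JUN, the AP-1 partner of FOS, read -0.11, 0.29, 1.82 and 0.22 in lactation, against -0.59, -0.62, -0.35 and -0.50 in the dry period, and here every animal was higher (difference 1.07, SE 0.29, limma adjusted p = 0.308). Without the lactation array of animal 3 the median of the list was 0.18, and without animals 2 and 3 it was 0.15.

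**Figure D4:**
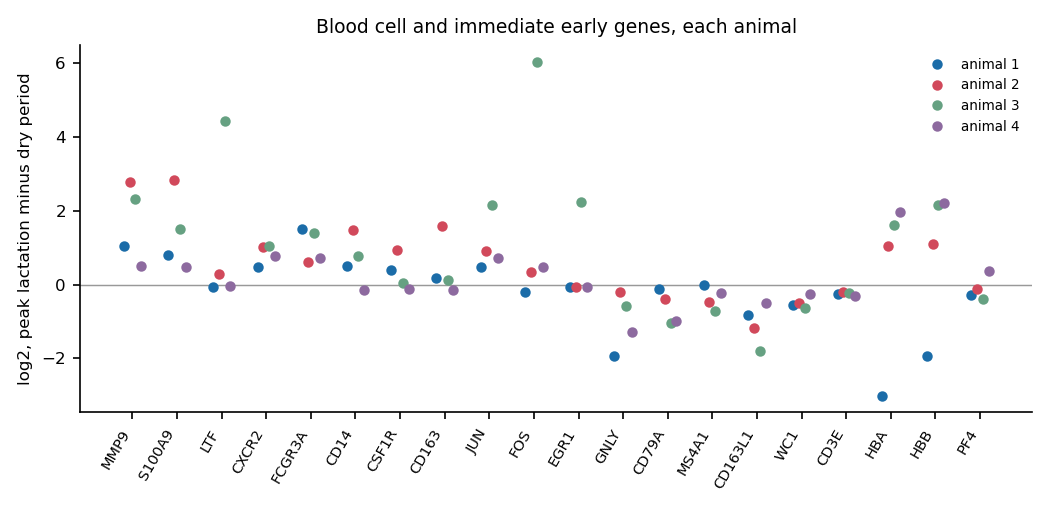
Difference between peak lactation and the dry period (log2, vertical axis) in each of 4 animals for genes of neutrophils, monocytes, immediate early response, lymphocytes, red cells and platelets. Animal 3 reached 6.03 for FOS and 4.43 for LTF, and animal 1 lay at -3.02 for HBA where the other animals lay above 0.

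Glucocorticoid response genes were higher in 22 of 28, with a median of 0.38 and single-animal medians of 0.19, 0.44, 0.16 and 0.30. FKBP5, a chaperone induced by glucocorticoids, read 0.64, 0.37, 0.27 and 0.19 in lactation, against -0.03, -0.07, -0.35 and -0.54 in the dry period, with no overlap, although its SE of 0.38 left the difference of 0.61 far from the threshold (limma adjusted p = 0.802). The SE is shared over all 24 arrays, and the spread within HF was smaller, with an SD of 0.20 in lactation and 0.25 in the dry period. SGK1, a kinase on several hormone pathways, differed by 1.05 (SE 0.32), and CXCR4, the receptor that holds white cells in bone marrow, by 1.21 (SE 0.32). NR3C1, the glucocorticoid receptor itself, differed by 0.05 (SE 0.17) and TSC22D3 by 0.33 (SE 0.26).

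Interferon-stimulated genes were higher in 41 of 48, with a median of 0.24, but animal 4 gave -0.03 where the others gave 0.27 to 0.34. IFIT3, an antiviral protein, read -0.73, 0.11, 0.38 and -0.28 in lactation, against -1.45, -1.60, -0.37 and -0.94 in the dry period, and was higher in each animal by at least 0.65. MX1, another, differed by -0.15 (SE 0.44). Pattern recognition receptors were higher in 29 of 40 (median 0.18), among them NLRC4, an inflammasome sensor of flagellin, at 0.10, 0.05, 0.06 and -0.28 in lactation, against -0.83, -0.86, -0.63 and -0.57 in the dry period. NOD2, a sensor of bacterial wall fragments, differed by 0.51 and TLR2 by 0.15. Interleukin, chemokine and NF-kappaB genes were higher in 36 of 45 (median 0.21). IL1RN, the natural antagonist of interleukin 1, differed by 0.91 (SE 0.27) and IL1B by 0.67 (SE 0.28), whereas TNF differed by -0.06 (SE 0.21).

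Other immune lists were mixed. TNF superfamily ligands and receptors were higher in 20 of 35 (median 0.03), with FAS, a death receptor, and TNFRSF1A, the main receptor for TNF, at 0.82 and 0.72, and TNFRSF13C, the BAFF receptor of B cells, at -0.42. Complement components and receptors were higher in 18 of 26 (median 0.10). CFP, properdin, which stabilises the alternative pathway, read -0.29, 0.05, 0.06 and -0.35 in lactation, against -0.87, -1.02, -0.63 and -0.78 in the dry period, with no overlap, while C3 differed by 0.11 (SE 0.26). MHC class II genes were higher in 11 of 26 (median -0.08), with single-animal medians of 0.24, 0.01, -0.32 and -0.07, and MHC class I genes in 14 of 21 (median 0.07). Without animals 2 and 3 the class II list turned round, with 20 of 26 higher and a median of 0.08. B2M, the shared light chain of class I, was higher in 4 of 4 animals by a mean of 0.24 (SE 0.20). Eosinophil, basophil and mast cell genes had a median of -0.07 over 13 genes, and CCR3, the eotaxin receptor, ranged from -1.23 to 0.39 in lactation and from -0.62 to 0.69 in the dry period.

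Metabolic lists lay closer to the median of all genes. Glucose transporters and glycolytic enzymes were higher in 21 of 32, with a median of 0.18, which became -0.02 with slide position in the model. SLC2A6, a glucose transporter of macrophages, differed by 0.75 (SE 0.24) and SLC2A1, the widespread transporter, by -0.23 (SE 0.26). Triglyceride and acyl-CoA synthetase genes had a median of 0.06, although DGAT2, which makes triglyceride, and GPAT3, which starts the pathway, differed by 1.22 and by over 1 log2 unit. Fatty acid oxidation genes split 15 to 14, with a median of 0.01. CPT1A, the entry step of fatty acids into mitochondria, differed by -0.09 (SE 0.24) and PDK4, which spares glucose in fasting, by -0.05 (SE 0.24). Cholesterol synthesis genes were higher in 15 of 24 (median 0.05), but animal 2 gave -0.37 where the others gave 0.17 to 0.29, and without animals 2 and 3 the count was 20 higher. HMOX1, haem oxygenase, and NFE2L2, the regulator of antioxidant genes, differed by 0.64 and 0.50 in a list with a median of 0.07.

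Cytosolic ribosomal proteins were lower in 74 of 78, by a small amount, with a median of -0.12. Single animals gave -0.06, -0.33, 0.12 and -0.17, so animal 3 was on the other side. The median was -0.03 without the dry array of animal 2, close to that of all genes, and -0.06 without the lactation array of animal 4. The count was 63 of 78 lower without animals 2 and 3. RPS28 and RPL23A, subunits of the small and large ribosomal particle, differed by -0.33 and -0.27, while RPLP0 differed by 0.00. Respiratory chain, proteasome, heat shock and cell cycle genes had medians of 0.01, 0.05, 0.08 and -0.03. In the clock list, the repressors BHLHE41 and BHLHE40 differed by -0.61 and -0.46 and NFIL3, another, by 0.96, around a median of -0.08.

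The lists closest to lactation itself had medians near 0. Over 13 tested milk protein and milk fat globule genes the median was -0.02, with 3 higher at an unadjusted p of 0.05. XDH, xanthine dehydrogenase, and PLIN2, a lipid droplet coat protein, named here for their size, differed by 0.61 (SE 0.19) and 0.53 (SE 0.18) and were higher in 4 of 4 animals. Beta casein (CSN2) read -0.23, -0.46, -0.21 and -0.25 in lactation, against -0.01, -0.41, -0.48 and -0.04 in the dry period. Prolactin, growth hormone and IGF signalling genes had a median of 0.04, with JAK2, the kinase on these receptors, at 0.40 (SE 0.13) and STAT5A, its transcription factor, at -0.09 (SE 0.12). Vitamin D and calcium genes had a median of -0.03. The calcium sensor STIM2 and the calcium pump ATP2A3 differed by -0.48 (SE 0.16) and -0.49 (SE 0.19). Acute phase proteins had a median of 0.00, with SAA3, serum amyloid A3, at -0.02 (SE 0.08), but 3 of 16 were higher at an unadjusted p of 0.05. These were HP at 1.21, A2M, a protease inhibitor, at 0.69 and ORM1, orosomucoid, at 0.60.

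Genes well above background in 1 state only were few and dim. CCL2, a monocyte chemoattractant, GAB3, an adaptor protein, and LOC781146 were above background on 4 of 4 lactation arrays and 0 of 4 dry arrays. For CCL2 the mean log2 Cy5 signal of the probe in lactation corresponded to 1.40-fold its own mean in the dry period, where it was not well above background. For GAB3 and LOC781146 the same ratio was 1.06 and 1.16. The limma adjusted p was 0.936 for CCL2, 0.937 for GAB3 and 0.98 for LOC781146.

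The cows differed from one another in the extent of the difference. Over 13432 genes the SD of the difference within an animal was 0.21, 0.36, 0.36 and 0.26 in animals 1 to 4. Genes over 1 log2 unit higher in lactation numbered 35, 263, 163 and 22, and those over 1 log2 unit lower 24, 20, 90 and 18. Above 1 log2 unit in size animal 2 was thus lopsided towards higher values, although its median over all genes was -0.04. Animals 2 and 3, whose arrays had the low spike-in correlations, had the widest differences. Across genes the differences of any pair of animals correlated at 0.17 to 0.36, a description over genes that share arrays.

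The authors' deposited table holds 437 probes they selected for this same contrast on these arrays, so it is not independent of the values above. In the authors' deposited table the probes higher in lactation number 307 and those lower number 130. Of the 419 that could be tested here, all had the same direction, 393 had an unadjusted p under 0.05, as 7.66% of all probes did, and the 3 NR1H3 probes passed the adjusted threshold. Of the 10 named probes at the extremes of the authors' deposited table, the 6 that could be tested had larger differences there than in the fit here. For the brightest, wide and narrow NR1H3 probes that table gives 1.05, 1.23 and 1.17, against 1.03, 1.03 and 0.56 in the fit here. The Agilent processed log ratio of these arrays also gave 1.05, 1.23 and 1.17. The source of the gap was not tested. In the authors' deposited table CXCL12, a chemokine, differs by -2.58 and SPIC, a transcription factor, by 1.86, against -0.23 and 0.23 at the same probes in the fit here. For PIP4K2B and RASAL1, a lipid kinase and a regulator of RAS, the authors' deposited table gives -1.41 and -1.24, and the fit here gave -0.25 and -0.38. In the authors' deposited table MMP9 differs by 1.91 at the downstream junction probe, which gave 1.18 here. Its brightest probe differs by 1.72 there and by 1.66 here, so the order of these 2 probes is reversed. The relative size of the MMP9 probes thus depended on the processing. The probes of UBE2U, FOSB, CP and ENC1 at the extremes of the authors' deposited table were too dim to be tested. In the authors' deposited table SLC28A3, a nucleoside transporter, differs by 1.72. The fit here gave it 1.21 (SE 0.30), from -0.03, 1.09, 1.11 and -0.17 in lactation, against -0.82, -1.03, -0.30 and -0.68 in the dry period. Analysis of variance followed by Tukey's comparison without adjustment over probes, the kind of test the study describes, gave 360 probes here (1.09%), of which 235 are in the authors' deposited table.

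PR cattle and deer give the same contrast in other animals. Between HF and PR the lactation effect differed at no probe in limma (0 of 33480 at an adjusted p of 0.05, 0%, and 991, or 2.96%, at an unadjusted p of 0.05). It was also 0 of 33480 in limma without PR dry array 1, whose signal stood far above all others, with 701, or 2.09%, at an unadjusted p of 0.05. NR1H3 differed between states by 1.03 in HF, 0.35 in PR and 0.09 in deer. The difference of HF from PR was 0.69 (SE 0.19, limma unadjusted p = 0.00151) and did not pass adjustment (limma adjusted p = 1.00). Without PR dry array 1 the PR value was 0.23 and the difference 0.80 (limma unadjusted p = 0.000224). The smallest unadjusted p-values between the breeds belonged to SLC25A20, which carries acylcarnitines into mitochondria, at -0.12 in HF and 0.77 in PR, to OSCAR, at 1.11 in HF and -0.28 in PR, and to CPT1A, at -0.09 in HF, with a difference of HF from PR of -1.39. Without PR dry array 1 the PR value of OSCAR was -0.14. Between HF and deer 1 of 35292 probes passed in limma (0.00283%, and 3300, or 9.35%, at an unadjusted p of 0.05), a probe with no gene name here.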

How the data were processed

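Members and gene lists were chosen with earlier results of these data known. Per the file headers, each array was deposited as spot intensity in Cy5 and Cy3 with local background, a log10 ratio of the processed signals, and yes-or-no flags per spot, made by Agilent Feature Extraction (10.10.1.1 in the headers, 10.7.3.1 in the submitters' processing notes). The authors also deposited normalized log2 ratios of selected probes, whose steps are not given in the sources used here. Less the probe mean over the HF arrays, its columns correlated at 0.99 or more with the Agilent processed log ratio of their arrays. The values fitted here did not enter that correlation.

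Here, mean intensity was background-corrected by normexp (offset 50), the log2 ratio of Cy5 over Cy3 adjusted by loess within each array, and spots of 1 probe averaged, with 1417 control spots left out. A probe was tested where Cy5 was well above background on 3 of 4 arrays of either HF state. A linear model with 6 group means over 24 arrays was fitted in limma 3.58.1 (statmod 1.5.0, data.table in version 1.17.8, R 4.3.3), with Benjamini-Hochberg adjustment and a threshold of 0.05. A gene stands by its brightest tested probe. Names came from accessions matched to RefSeq (28355 probes) or the files' own names (5744). Replicates are separate cows. No array pair was a duplicate (highest correlation between HF arrays 0.70). Deviations from group means correlated at 0.51, 0.18, 0.38 and 0.28 within animals, and at most at 0.04 between animals. Paired arrays also shared a slide and a scan session, so these correlations cannot show by themselves that the numbers pair the animals. The pairing rests on the series text. In data simulated at this size, 44% of probes changed by 0.5 log2, 92% at 1 and 98% at 1.5 were called. The simulated noise was independent between arrays, unlike the paired arrays here, and 50 probes were changed at each size. These shares therefore need not hold for the real data. Genes are named if past the threshold, among the 15 on each side with the smallest p and the same sign in 4 animals, key or leading in a list, at the extremes of the deposited table, above background in a single state, or among the 5 smallest p between HF and PR. A few genes that meet these rules are not reported here. Alternatives covered background correction, normalization, filters, blocks, weights and leaving out each array. Figures used matplotlib.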

Additional observations from a re-analysis of the deposited data

Results flagged for a closer look

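Of 388 groups of 4 values, 28 had a sample far from the other 3, and chance gives about 1 in 20 groups. On lactation arrays, animal 3 stood high for FOS (5.77), LTF (2.92), EGR1 (2.10) and CCL2 (0.75) and low for NFYC (-0.19). Animal 2 stood high in lactation for PRF1 (1.07) and CD163 (0.63) and low for CYBB (-0.54) and CSN2 (-0.46). Animal 1 stood low in lactation for MYLIP (0.23), TLR9 (-0.052), SPIC (-0.52) and GAB3 (-0.27). Animal 4 stood low in lactation for NLRC4 (-0.28) and UBE2U (-0.16) and high for ATP2A3 (0.26).

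On dry arrays, animal 3 stood high for KRT17 (0.46), CD55 (0.28), IL1RN (-0.52), PFKFB4 (-0.27) and STIM2 (0.78). Animal 2 stood high in the dry period for RPL3 (0.38) and PSMA1 (0.27). Animal 1 stood low in the dry period for AGFG2 (0.053) and PSMB10 (-0.35) and high for HP (-0.60). Animal 4 stood low in the dry period for CPT1A (-0.98) and high for COX4I1 (0.21).

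The lactation effect of the unnamed probe TC436754 was 0.40 in HF, -0.78 in deer and -0.10 in PR. The difference of HF from deer, 1.17 (SE 0.17, limma adjusted p = 0.0392), passed the threshold, and its effect within HF did not (limma adjusted p = 0.374).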

How the results depend on the processing

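Of 3 probes past the threshold, the count was 1 with the replicate block by animal, 1 in the 8 HF arrays alone, 0 there with the replicate block, 5 in the 16 cattle arrays, 18 with array weights and 360 by analysis of variance with Tukey's test. It was 0 without HF animals 2 and 3, with slide position as a factor, with median centring, with Cy5 alone and with Cy3 alone. Leaving out 1 HF array gave 1 to 2. The 1 probe called with the animal block was not among the 3 of NR1H3. The brightest NR1H3 probe lost its call with the replicate block or with the 8 HF arrays alone (1.03 in each), without animals 2 and 3 (0.87), with position (0.90), with median centring (0.98) and with Cy5 alone (1.03), and ran from 0.96 to 1.14 without single arrays. The wide junction probe lost it in those settings too, at 1.03 with the block or with HF alone, 0.86, 0.69, 1.00 and 0.89, and without 7 of the 8 single arrays, over which it ran from 0.960 to 1.099. The narrow one lost it at 0.56 with the block, with HF alone and in the 16 cattle arrays, and at 0.55, 0.36, 0.63 and 0.46, and without each single array, from 0.50 to 0.59. It kept its call at larger sizes with no background correction (0.73), plain subtraction (1.08) and the Agilent processed log ratio (1.17). No NR1H3 value changed sign, and the cause was not tested. The block moved no other named gene to a call. Without animals 2 and 3, 25 of 193 named genes changed sign, and with position 28. The medians of the neutrophil, monocyte, T, B and NK cell, interferon, immediate early, glucocorticoid, pattern recognition, interleukin and ribosomal lists kept their sign in 27 alternatives, between 0.12 and 1.06 for neutrophil granule genes, -0.28 and -0.02 for T cell genes, and -0.19 and -0.03 for ribosomal genes. Several of the 27, such as the HF or cattle arrays alone, leaving out PR dry array 1 and Tukey's comparison, keep the HF difference of means unchanged. Those settings could not change a sign. With position 15 of 37 lists changed sign. The counts of list members without animals 2 and 3 or without lactation array 3, and the HF and PR difference without PR dry array 1, were added after the data were seen.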
